A study of Mus musculus with 4 samples.

Results

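Integrin and laminin chain genes were followed in RNA sequencing of C2C12 myotubes, the multinucleate muscle cells formed by the C2C12 mouse myoblast line. The set holds every protein-coding gene whose symbol names an integrin α chain, an integrin β chain or a laminin α, β or γ chain. It counts 37 of the 45777 genes in the deposited table, 26 integrin chains and 11 laminin chains. Membership follows from the gene symbol and uses no measured value. There were 4 libraries in 4 groups with 1 library each. They were myotubes titled EPS (the EPS-titled library), myotubes titled as their control (the EPS-titled control), myotubes given clenbuterol, and the control for clenbuterol. All were grown in DMEM with 2% horse serum. The labels do not spell out EPS, which is taken to mean electrical pulse stimulation, a way to make myotubes contract in culture, and clenbuterol is an agonist of β-adrenergic receptors. The treatment field names 30 ng/ml clenbuterol for every library, controls included, so the groups follow the titles. The labels give neither pulse settings nor exposure times. C2C12 is a single immortalised line, so the libraries hold no nerve, vessel or blood cells by design.

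In the EPS pair, titles and data names disagree. The library titled EPS carries data named for the control, and the EPS-titled control carries data named for EPS. Directions within this pair are given by title and turn round if the data names are right. Since every group is 1 library, no test between conditions was possible and differences are given by their size alone, with no replicate behind any value. Totals ran from 32640884 to 35597074 estimated counts per library. All 8 myotube markers checked were measured, with Myog, a transcription factor of differentiating myoblasts, between 600 and 969 TPM and the muscle creatine kinase gene Ckm between 292 and 531 TPM. No marker of endothelial cells, Schwann cells or adipocytes exceeded 0.948 TPM.

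Integrins are heterodimers of an α and a β chain that span the plasma membrane and tie the extracellular matrix to the actin cytoskeleton. Laminins are trimers of an α, a β and a γ chain that polymerise into the basement membrane around each muscle fibre. In skeletal muscle the α7β1 integrin is a main laminin receptor, beside dystroglycan. Loss of the laminin α2 chain causes a congenital muscular dystrophy. An integrin chain that lacks its partner is generally retained inside the cell. Transcript levels of single chains do not give the amount of assembled receptor or trimer.

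Levels are given as TPM, a transcript abundance that is scaled by gene length and library total and can be compared between genes. A gene counted as measured when it reached a TPM of 1 in at least 1 library. This held for 26 of the 37 chains, 9 of 18 integrin α chains, 7 of 8 integrin β chains and 10 of 11 laminin chains. Their levels ran from 0.916 TPM for Itgb4 to 1041 TPM for Itga7 and Itgb1, and in each class but laminin β 1 gene held most of the transcripts.

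**Figure D1:**
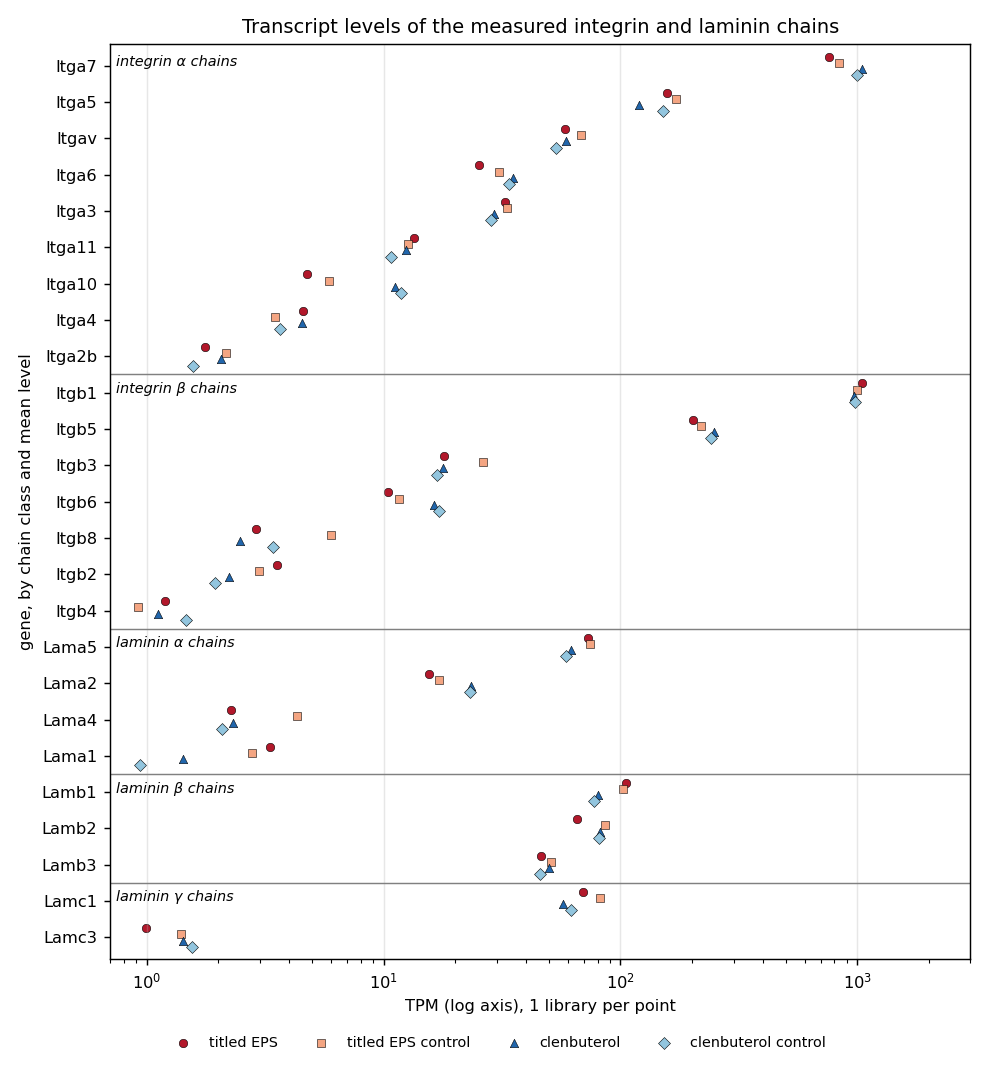
TPM of the measured integrin and laminin chains on a log axis, 1 point per library, grouped by chain class and sorted by mean level. Itgb1 lies near 1000 TPM in every library and Itga7 at 756 to 1041 TPM, and most chains show the 4 libraries close together.

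The laminin-binding integrin α chains held most of the α-chain transcripts. Itga7, which encodes the muscle laminin receptor chain, reached 756 TPM in the EPS-titled library, 839 in the EPS-titled control, 1041 with clenbuterol and 999 in its control. It made up 71.7% to 79.2% of the summed α-chain TPM. The gene lies on the plus strand of mm10 chromosome 10 at 128933421 to 128958286. Itga6 and Itga3, whose products bind laminins in many epithelia, were far lower. Itga6 stood at 25.2 TPM in the EPS-titled library, 30.8 in the EPS-titled control, 35.2 with clenbuterol and 33.8 in its control. Itga3 stood at 32.5, 33.3, 29.4 and 28.3 TPM in the same order, so that Itga3 exceeded Itga6 in both libraries of the EPS pair and Itga6 exceeded Itga3 in both clenbuterol libraries.

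Among chains that recognise the RGD tripeptide of fibronectin and vitronectin, Itga5 and Itgav were prominent. Itga5, which pairs with β1 to form the classical fibronectin receptor, had 157 TPM in the EPS-titled library, 171 in the EPS-titled control, 120 with clenbuterol and 151 in its control. The clenbuterol library held the lowest value. Itgav, the partner of several β chains and an activator of latent TGF-β in some of these pairs, ranged from 53.2 to 68.4 TPM. Itga2b, the platelet fibrinogen receptor chain, was at 1.57 to 2.16 TPM. Of 5 platelet and megakaryocyte markers, 4 were at 0 in all libraries and Ppbp reached at most 0.934 TPM. Itga8, with at most 8 counts, stayed below the limit.

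Collagen-binding chains were represented by Itga11 and Itga10. Itga11, a receptor of fibrillar collagen in mesenchymal cells, stood at 13.5 TPM in the EPS-titled library, 12.7 in the EPS-titled control, 12.5 with clenbuterol and 10.8 in its control. Itga10, a collagen receptor best known from cartilage, had 4.75 TPM in the EPS-titled library, 5.91 in the EPS-titled control, 11.2 with clenbuterol and 11.9 in its control. The highest TPM of Itga1 was 0.634 and that of Itga2 was 0.0361, both below the limit. Itga4, which binds VCAM-1 and fibronectin, ranged from 3.47 to 4.59 TPM, whereas Itga9 reached at most 0.149 TPM.

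The integrin α chains of white blood cells, and Itgb7, stayed below 1 TPM in every library. Itgad had 0 counts in all 4 libraries, where 3 counts would equal 0.0830 to 0.0921 CPM, counts scaled to the library total. Itgal and Itgax had 14 and 8 counts in the clenbuterol control and 0 elsewhere. Itgam and Itgae had at most 16 and 13 counts. Itgb7 had at most 19 counts. Itgb2, the shared β chain of leukocyte integrins, passed the limit at 3.55 TPM in the EPS-titled library, 2.98 in the EPS-titled control, 2.23 with clenbuterol and 1.95 in its control. The pan-leukocyte gene Ptprc and 4 more of 8 leukocyte markers were at 0 in all libraries. The summed marker level of 2.93 to 5.03 TPM came mostly from Cd68.

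Itgb1, the β chain that most α chains share, was the most abundant β chain. It reached 1041 TPM in the EPS-titled library, 1000 in the EPS-titled control, 963 with clenbuterol and 979 in its control, which was 77.0% to 81.4% of the β-chain TPM. The 4 values lie close together. The α chains able to pair with Itgb1 summed to 1053, 1166, 1313 and 1292 TPM in the same order, Itgav included.

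The β chains that pair with Itgav came next. Itgb5, a vitronectin receptor chain, stood at 202 TPM in the EPS-titled library, 219 in the EPS-titled control, 248 with clenbuterol and 240 in its control. Itgb3, a further vitronectin receptor chain that also binds osteopontin, stood at 18.0, 26.4, 17.8 and 16.8 TPM, with the EPS-titled control apart. Itgb6, best known from epithelia as an activator of TGF-β, stood at 10.4, 11.6, 16.4 and 17.2 TPM. Itgb8, another activator of TGF-β, had 2.90 TPM in the EPS-titled library, 6.00 in the EPS-titled control, 2.47 with clenbuterol and 3.40 in its control. Itgb4, the hemidesmosome chain of epithelia that pairs with Itga6, was at 0.916 to 1.47 TPM. It overlaps Galk1, at 71.1 to 101 TPM on the opposite strand, by 56 bases, and whether the counting used strand is not stated. Of 6 epithelial markers, Epcam, Krt5 and Krt18 were at 0 in all libraries while Krt14 stood at 16.9 to 25.9 TPM and the summed level at 17.4 to 26.5 TPM.

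Laminin α transcripts were led by Lama5 rather than by Lama2. Lama5, a laminin α chain of many developing and adult basement membranes, had 73.0 TPM in the EPS-titled library, 74.7 in the EPS-titled control, 61.7 with clenbuterol and 58.9 in its control. Lama2, the chain of mature muscle basement membrane, had 15.5, 17.2, 23.4 and 23.2 TPM. Lama5 held 69.1% to 77.5% of the laminin α TPM and Lama2 held 16.5% to 27.3%. Lama4, a chain of vessel and nerve basement membranes, was at 2.08 to 4.32 TPM. Lama1, the chain of early embryonic basement membranes, had 3.32 TPM in the EPS-titled library, 2.78 in the EPS-titled control, 1.42 with clenbuterol and 0.942 in its control. Its order thus placed both libraries of the EPS pair above both clenbuterol libraries. Lama3, the epithelial chain, had at most 28 counts and 0.173 TPM.

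All 3 laminin β chains were well represented. Lamb1, the most widespread β chain, had 106 TPM in the EPS-titled library, 102 in the EPS-titled control, 80.5 with clenbuterol and 77.4 in its control. Lamb2, the β chain enriched at the neuromuscular junction, had 65.6, 85.9, 81.7 and 81.2 TPM. Lamb1 exceeded Lamb2 in both EPS-pair libraries, whereas Lamb2 stood slightly above Lamb1 in both clenbuterol libraries. Lamb3, an epithelial chain that assembles with Lama3, stood at 46.2 TPM in the EPS-titled library, 51.0 in the EPS-titled control, 50.1 with clenbuterol and 45.8 in its control. Lama3 stayed below the limit.

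Lamc1, the γ chain of most laminins, had 69.7 TPM in the EPS-titled library, 81.7 in the EPS-titled control, 57.2 with clenbuterol and 61.8 in its control. It held 83.7% to 89.1% of the laminin γ TPM. Lamc3 had 0.999 to 1.56 TPM. Summed over each class, laminin α chains reached 94.2, 99.1, 89.0 and 85.3 TPM in the same order. Laminin β chains reached 217, 238, 212 and 204 TPM, above the α sum in every library. Laminin γ chains reached 78.2, 92.5, 67.8 and 73.9 TPM.

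**Figure D2:**
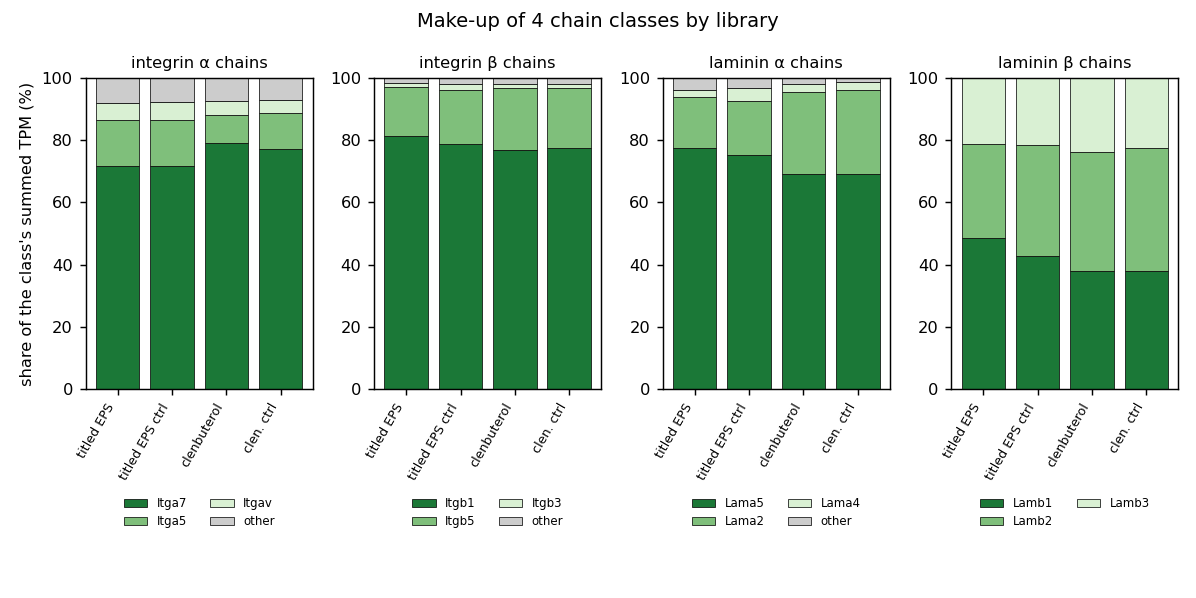
Share of the summed TPM of 4 chain classes held by their leading genes, as stacked bars for the EPS-titled library, the EPS-titled control, clenbuterol and its control. Itga7, Itgb1 and Lama5 take most of their class in all 4 libraries, while the laminin β class is split among Lamb1, Lamb2 and Lamb3.

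The first comparison asks which chains differ in myotubes given clenbuterol. None of the 26 measured chains was 2-fold higher or lower. A gene counted as different when the ratio of TPM plus 1 reached 2-fold. Over all 13788 measured genes 1.00% were higher and 0.515% lower by that rule, and over 11854 protein-coding genes 0.548% and 0.0844%. Calls were thus rare among all genes, and the count of 0 does not set the family apart. No chain reached 1.5-fold either, a size that 2.47% of protein-coding genes reached in one or the other direction. The log2 ratios of the chains ran from −0.34 to 0.32 with a median of 0.05, beside a median of −0.01 over protein-coding genes. Of the 26 chains 17 lay above 0 and 9 (34.6%) below, beside 53.8% of protein-coding genes below.

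The fold for single genes was also taken from CPM with edgeR's TMM scaling, with an exact 95% interval that covers counting error only and not the spread between cultures. Itga5 was covered by 7565 counts with clenbuterol, against 9690 in the control, and was 1.24-fold lower (1.21 to 1.28). Lama1 was higher, on 195 counts with clenbuterol against 134 in the control, with an interval of 1.20 to 1.88 on its CPM ratio. This is the embryonic laminin α chain, at about 1 TPM. Itgb8, on 110 counts with clenbuterol against 153 in the control, was 1.35-fold lower (1.05 to 1.74). Itga4 had a CPM ratio of 1.25 (1.11 to 1.41) and Itga11 one of 1.18 (1.07 to 1.30). Lamc1 and Lamc3 had log2 ratios below 0, at −0.11 and −0.07, while all 4 measured laminin α chains had ratios above 0, from 0.01 for Lama2 to 0.32 for Lama1. The Lama2 value was close to 0 and turned sign under 1 of 8 scalings and pseudocounts tried. For Itgb4 the log2 ratio was −0.22 and for Itga2b 0.25, on 79 to 136 counts per library. Among the abundant chains, Itgb1 had a CPM ratio of 0.997 (0.986 to 1.01) and Itga7 one of 1.06 (1.05 to 1.07).

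**Figure D3:**
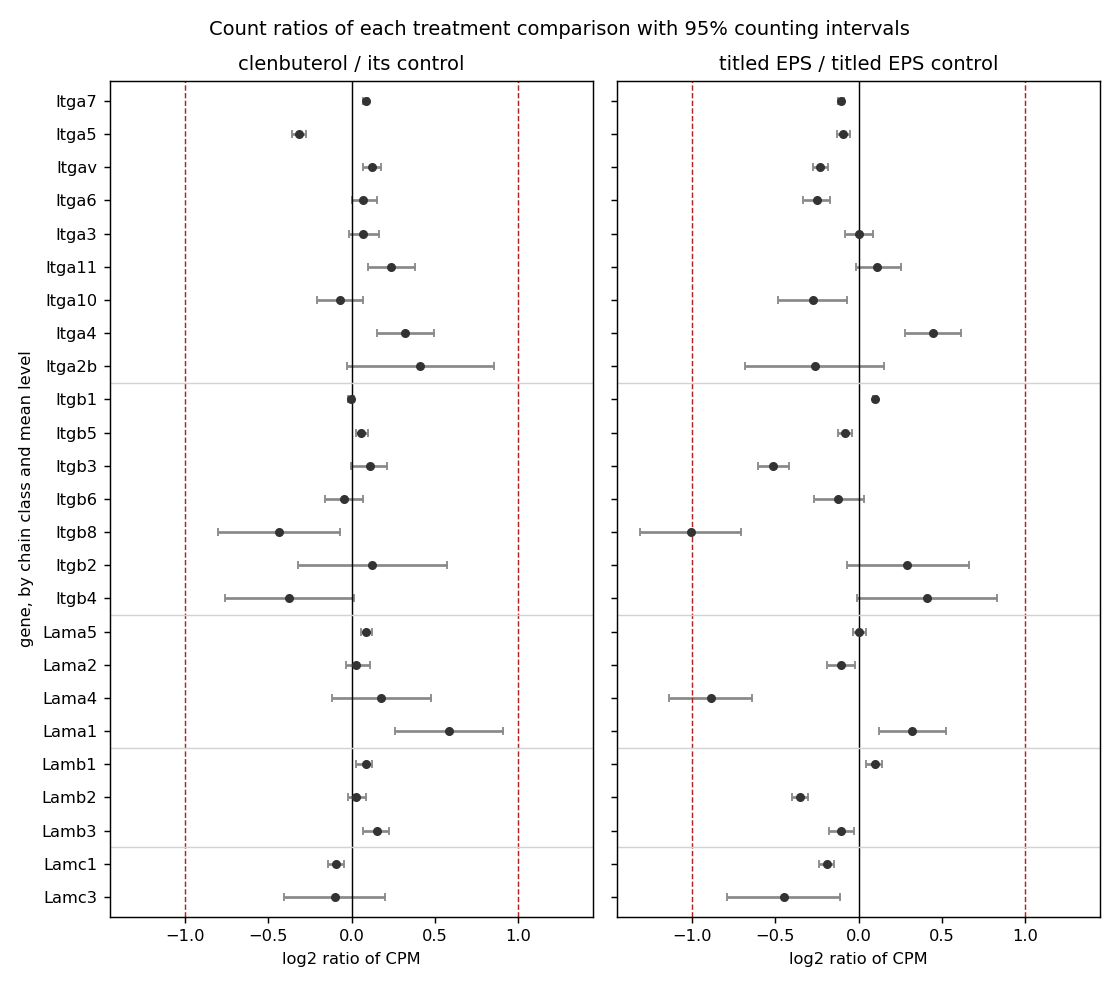
Log2 ratio of CPM for the measured chains, with clenbuterol over its control on the left and the EPS-titled library over the EPS-titled control on the right. Bars are 95% counting intervals and dashed lines mark 2-fold. Points on the left stay inside the dashed lines, and on the right Itgb8 and Lama4 lie farthest from 0.

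The second comparison asks which chains differ under EPS, read by title. No chain reached 2-fold in TPM plus 1 here either. By the same rule, over all 13828 measured genes 0.868% were higher and 1.14% lower, and over 11874 protein-coding genes 0.328% and 0.632%. Chains nevertheless lay lower in the EPS-titled library more often than not, with 19 of 26 (73.1%) below 0 and a median log2 ratio of −0.14. Among protein-coding genes 55.4% lay below 0 and the median was −0.03. In CPM 17 of the 26 lay below 0, with a median of −0.11, beside a median of 0.01 over all measured genes. The share of all genes below 0 was not taken in CPM. The summed level of 8 myotube markers was also lower there, at 11586 TPM in the EPS-titled library and 15952 TPM in the EPS-titled control. Its part in the chain values was not tested. In bulk RNA, fewer myotubes and less RNA per myotube cannot be told apart.

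Itgb8 and Lama4 stood farthest apart in this pair. Itgb8, at 2.90 TPM in the EPS-titled library and 6.00 TPM in the EPS-titled control, had 141 and 256 counts and was 2.01-fold lower in CPM by title (1.63 to 2.49). It thus passed 2-fold in CPM without a pseudocount, whereas its log2 ratio of TPM plus 1 was −0.85. Lama4, at 2.27 TPM in the EPS-titled library and 4.32 TPM in the EPS-titled control, had 215 and 359 counts and was 1.85-fold lower (1.56 to 2.20). For both genes the EPS-titled control was above all 3 other libraries, which lay at 2.47 to 3.40 TPM for Itgb8 and at 2.08 to 2.32 TPM for Lama4. At a threshold of 1.5-fold these were the 2 chains called lower, 7.69% of those measured, beside 3.16% of protein-coding genes.

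Itgb3 was likewise highest in the EPS-titled control, at a higher level. It was 1.43-fold lower by title (1.34 to 1.52), on 1627 counts in the EPS-titled library and 2095 in the EPS-titled control. Itgb3, Itgb5, Itgb6 and Itgb8, the β chains besides Itgb1 that pair with Itgav, all had log2 ratios below 0, with a median of −0.34. The single values were −0.53, −0.12, −0.15 and −0.85, and the median over all 26 measured chains was −0.14. Itgb5 was only 1.06-fold lower (1.03 to 1.09). For Itgb6, 1.09-fold lower, the interval of 0.985 to 1.20 held 1. Itgav itself was 1.17-fold lower (1.14 to 1.21). Lamb2 was 1.28-fold lower (1.23 to 1.32), and Lamc1 was 1.14-fold lower (1.11 to 1.18). Itga6 was 1.19-fold lower (1.13 to 1.26) and Itga10 1.21-fold lower (1.05 to 1.40). In the other direction, Itga4 had a CPM ratio of 1.36 (1.21 to 1.53) and Lama1 one of 1.25 (1.09 to 1.44). Itgb1 (1.07, 1.06 to 1.08) and Lamb1 (1.07, 1.03 to 1.10) were slightly higher by title, and Itga3 and Lama5 had CPM ratios of 1.00.

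The promoter window of Itgb8 is printed because among the measured chains this gene had the largest ratio within a treatment pair. RefSeq windows of GRCm38.p6 run from 250 bases before to 50 bases after a transcript start, and 23 of the 37 genes had at least 1. Capitals mark E-boxes, the CANNTG motif bound by myogenic helix-loop-helix factors, searched on both strands. The window lies at chr12:119238227-119238526 on the minus strand.
Itgb8: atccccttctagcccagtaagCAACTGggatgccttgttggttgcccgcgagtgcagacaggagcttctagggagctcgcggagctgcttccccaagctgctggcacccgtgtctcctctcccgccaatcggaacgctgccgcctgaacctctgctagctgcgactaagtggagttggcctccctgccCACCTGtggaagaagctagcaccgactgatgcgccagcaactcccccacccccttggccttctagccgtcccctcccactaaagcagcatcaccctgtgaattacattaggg
It held 2 E-boxes. Searched on both strands, it held no match to TGACG, which is part of the cyclic AMP response element, to the AP-1 core TGANTCA or to the GC box GGGCGG. Over all 32851 windows 72.3% held an E-box, 20.8% TGACG, 7.81% TGANTCA and 35.7% GGGCGG. Of 26 windows of the family 22 held an E-box, 5 TGACG, 3 TGANTCA and 12 GGGCGG.

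The levels also differed between the 2 experiments, the pair of EPS libraries and the pair of clenbuterol libraries, each holding a treated and a control culture. These are not replicates, and the means below describe the pairs only. CPM ratios between the pairs pool the counts of the treated and the control library of each pair. Their intervals cover counting error of these pooled counts and not the spread between libraries. For 17 of the 26 measured chains (65.4%) both libraries of a pair lay on the same side of both libraries of the other pair, 10 higher and 7 lower in the EPS pair. Of all protein-coding genes 62.0% were separated in this way, 35.6% higher and 26.4% lower, so the share among the chains was close to the background. No chain differed 2-fold in mean log2 of TPM plus 1, a size that 0.865% of all measured genes exceeded upwards and 0.830% downwards, or 0.756% and 0.797% of protein-coding genes. The median difference was 0.07, beside 0.04 over protein-coding genes.

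Itga10 and Lama1 lay at the ends of this range. Itga10 averaged 5.33 TPM in the EPS pair and 11.5 TPM in the clenbuterol pair, a difference of −0.99 on the log2 scale of TPM plus 1. It was 2.23-fold lower in CPM (2.05 to 2.44). Lama1 averaged 3.05 TPM in the EPS pair and 1.18 TPM in the clenbuterol pair, a log2 difference of 0.90 and a CPM ratio of 2.54 (2.23 to 2.89). In CPM both passed 2-fold. Within each pair the 2 libraries of Itga10 stood closer to each other than to either library of the other pair, and so did those of Lama1.

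Lower in the EPS pair were also Itgb6, Lama2, Itga7, Itga6, Itgb5 and Lamc3. Itgb6 was 1.57-fold lower in CPM (1.48 to 1.68), Lama2 1.47-fold lower (1.42 to 1.53) and Itga7 1.31-fold lower (1.30 to 1.32). Higher in the EPS pair beside Lama1 were Itgb2, Itgb3, Lamb1, Lamc1, Lama5, Itga5, Itga3, Itga11 and Itgb1. Lamb1 had a CPM ratio of 1.28 (1.25 to 1.31), Lamc1 one of 1.24 (1.21 to 1.26), Lama5 one of 1.20 (1.17 to 1.22) and Itga5 one of 1.18 (1.15 to 1.20). For Itga7 and Itga5 the single libraries spread more widely than these pooled intervals. Itga7 stood at 1339 and 1443 CPM in the EPS pair and at 1874 and 1773 in the clenbuterol pair. Itga5 stood at 298 and 318 CPM in the EPS pair and at 232 and 289 in the clenbuterol pair. Itgb8, Lama4, Itgav, Itga4, Itga2b, Itgb4, Lamb2 and Lamb3 overlapped between the pairs. Some of these placements hold in TPM and not in CPM. In CPM Itgb1 stood at 1885 and 1765 in the EPS pair and at 1776 and 1782 in the clenbuterol pair, and Itgb3 and Itga11 overlapped likewise. Itgav did not overlap in CPM, at 207 and 243 in the EPS pair and 201 and 184 in the clenbuterol pair.

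Summed marker levels also differed between the pairs. Myotube markers summed to 11586 and 15952 TPM in the EPS pair and to 18101 and 17491 TPM in the clenbuterol pair. Of the 8 genes 7 were lower in both EPS-pair libraries. Acta1, the skeletal actin gene and the largest part of the sum, overlapped, with 5723 TPM in the EPS-titled library, 9090 in the EPS-titled control, 8891 with clenbuterol and 8270 in its control. The 6 markers of undifferentiated, dividing myoblasts summed to 265 and 238 TPM in the EPS pair and to 163 and 175 TPM in the clenbuterol pair. Pax7 overlapped, at 0.571 TPM in the EPS-titled library, 1.09 in the EPS-titled control, 1.39 with clenbuterol and 0.787 in its control. The 5 fibroblast markers summed to 1433 and 1393 TPM in the EPS pair and to 856 and 790 TPM in the clenbuterol pair, mostly from Col1a1, with Thy1 at 0 in all libraries. Pdgfra went the other way, at 3.46 and 4.07 TPM in the EPS pair and 4.33 and 4.31 TPM in the clenbuterol pair. Their part in the differences between pairs was not tested, and treatment, culture and library of each pair cannot be told apart.

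**Figure D4:**
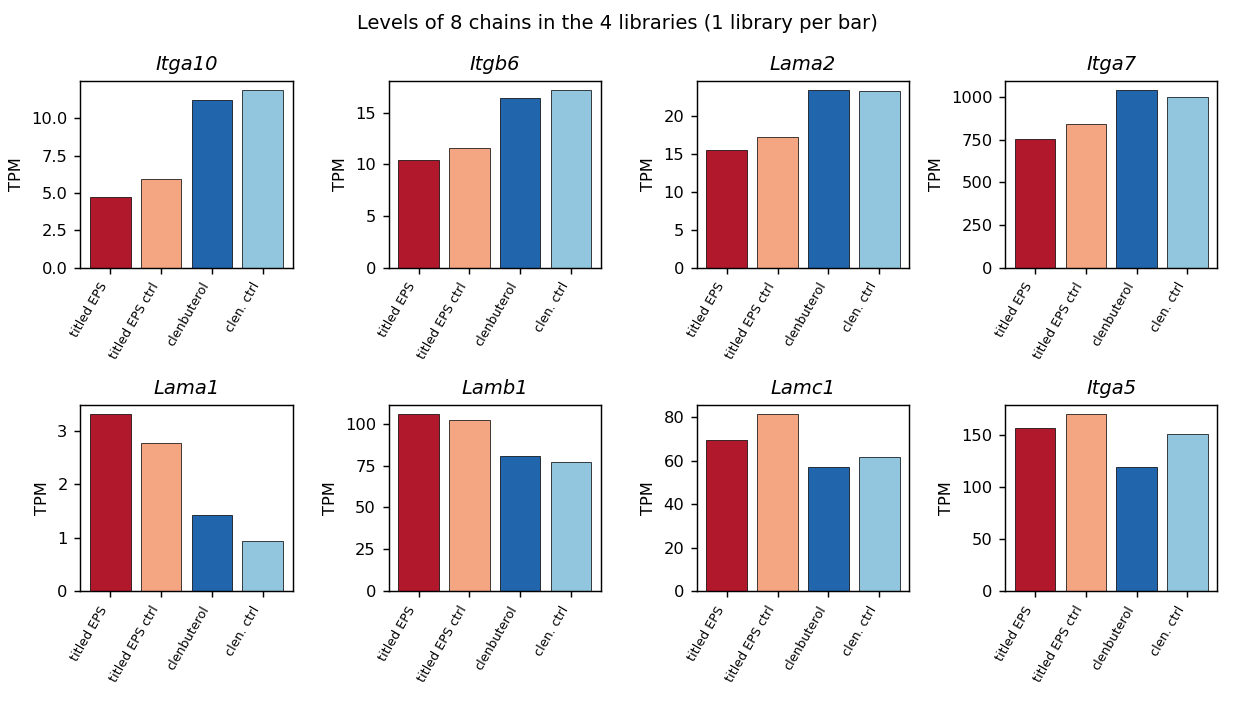
TPM of 8 chains in each library as bars from 0, with the EPS pair on the left and the clenbuterol pair on the right of each panel. Itga10, Itgb6, Lama2 and Itga7 are lower in both EPS-pair libraries, and Lama1, Lamb1, Lamc1 and Itga5 are higher in both.

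The promoter windows of Itga10 and Lama2, a collagen receptor chain and the muscle laminin chain that were both lower in the EPS pair, are shown for comparison. Capitals again mark E-boxes. The Itga10 window lies at chr3:96645334-96645633 on the plus strand and the Lama2 window at chr10:27616893-27617192 on the minus strand. In the deposited positions the Lama2 gene begins at 27617191, so nearly all of its window lies inside the gene. The Itga10 window and the Itgb8 window surround the deposited starts of their genes.
Itga10: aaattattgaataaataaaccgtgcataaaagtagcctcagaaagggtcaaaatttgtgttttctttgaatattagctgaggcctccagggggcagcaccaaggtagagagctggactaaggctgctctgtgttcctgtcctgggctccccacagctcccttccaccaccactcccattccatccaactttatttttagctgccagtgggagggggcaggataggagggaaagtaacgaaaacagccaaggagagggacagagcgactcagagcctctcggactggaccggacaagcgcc
Lama2: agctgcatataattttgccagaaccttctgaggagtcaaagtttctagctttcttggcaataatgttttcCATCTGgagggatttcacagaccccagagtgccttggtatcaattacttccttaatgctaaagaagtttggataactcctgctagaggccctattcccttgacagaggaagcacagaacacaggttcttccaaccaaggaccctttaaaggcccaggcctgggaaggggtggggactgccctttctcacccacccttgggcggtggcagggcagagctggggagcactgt
The Itga10 window held none of the 4 motifs searched, and the Lama2 window held 1 E-box and 1 GC box.

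Genes that work with integrins and laminins were read from 4 lists of 12 to 40 genes. Among 36 measured cytoplasmic partners of integrins, none reached 2-fold in either treatment pair, and the median log2 ratio was 0.00 with clenbuterol and −0.13 by title under EPS. Over all measured genes 1.00% were at least 2-fold higher and 0.515% lower with clenbuterol, with a median of −0.01. By title under EPS these shares were 0.868% and 1.14%, with a median of −0.02. Over protein-coding genes the shares were 0.548% and 0.0844% with clenbuterol and 0.328% and 0.632% by title under EPS. The genes named from each list had at least 5 TPM in a library of the comparison, and values in brackets are log2 ratios of TPM plus 1. With clenbuterol the lowest were Vcl, which links talin to actin (−0.23), and Tns3 (−0.17). The highest were Itgb1bp1, an inhibitor of β1 activation (0.48), and the scaffold gene Nedd9 (0.34). In CPM the order was reversed, with a ratio of 1.20 (1.09 to 1.33) for Itgb1bp1 and 1.29 (1.23 to 1.35) for Nedd9. By title under EPS the lowest were Flnc, the muscle filamin (−0.64), and Itgb1bp2, the muscle protein melusin that binds the β1 tail (−0.48). Flnc stood at 262 TPM in the EPS-titled library and 409 in the EPS-titled control. Itgb1bp1 (0.64) and Cib2 (0.31) were the highest, but the CPM ratio of Itgb1bp1 was only 1.11 (1.000 to 1.23). Between the pairs Apbb1ip, which recruits talin to integrins (0.78), and the filamin gene Flna (0.73) were higher in the EPS pair, and Cib2, a calcium- and integrin-binding protein (−0.56), and Kank1, which binds talin (−0.51), lower. The median between the pairs was 0.07.

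Of 23 measured basement membrane partners of laminin none reached 2-fold in either treatment pair, with medians of 0.05 with clenbuterol and −0.09 by title under EPS. Over all measured genes the medians were −0.01 and −0.02. With clenbuterol the ratios ran only from −0.03, for Sdc2 and Fbln1, to 0.23 for Agrn, which clusters acetylcholine receptors, and 0.24 for Smoc2. By title under EPS, Npnt, a ligand of α8β1, was 1.48-fold lower (1.44 to 1.52). Nid1, which bridges laminin and collagen IV networks, was 1.41-fold lower (1.38 to 1.44), at 180 TPM in the EPS-titled library and 260 TPM in the EPS-titled control. Smoc2 (0.24) and Col4a5 (0.25) were the highest. Between the pairs Nid1 and Col18a1 were higher in the EPS pair (0.96 each), and Npnt (−0.89) and Bcam, which binds Lama5-containing laminin (−0.84), were lower. The median between the pairs was 0.18, beside 0.04 over all measured genes, and none of the list reached 2-fold.

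Of 28 measured integrin ligands outside the laminins, none reached 2-fold with clenbuterol and 1 was 2-fold higher by title under EPS. That gene was Ccn2, the matricellular connective tissue growth factor, at 576 TPM in the EPS-titled library and 267 TPM in the EPS-titled control. Over all measured genes 0.868% were at least 2-fold higher by title under EPS, and over protein-coding genes 0.328%. The list's medians were 0.08 with clenbuterol, −0.02 by title under EPS and 0.31 between the pairs. Over all measured genes the medians were −0.01, −0.02 and 0.04 in the same order. With clenbuterol Ccn1 (0.47) and Emilin1 (0.31) were the highest and Tnc and L1cam (−0.08 each) the lowest. By title under EPS Thbs2 stood at 0.62, and L1cam (−0.83) and Emilin1 (−0.68) were the lowest. Between the pairs Emilin1 (1.18) and Adam12 (1.13) were at least 2-fold higher in the EPS pair, Ccn2 was at least 2-fold lower (−1.46) and Ccn1 stood at −0.75. Over all measured genes 0.865% were at least 2-fold higher and 0.830% lower between the pairs, and over protein-coding genes 0.756% and 0.797%.

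Of 12 tetraspanins and integrin co-receptors, all measured, 1 was 2-fold higher with clenbuterol and none was lower. Over all measured genes 1.00% were at least 2-fold higher and 0.515% lower, and over protein-coding genes 0.548% and 0.0844%. Plaur, the urokinase receptor that binds integrins in the membrane, had 37.2 TPM with clenbuterol and 13.8 TPM in the control, a CPM ratio of 2.67 (2.34 to 3.05). It stood at 13.8 TPM in the EPS-titled library and 17.1 TPM in the EPS-titled control, so that the clenbuterol library was apart from the other 3. Slc3a2, a chaperone of amino acid transporters that binds β1 tails, followed at 0.51, and Cav1 (−0.23) and Cav3 (−0.20) were the lowest. By title under EPS the ratios ran from −0.29 for Plaur and −0.28 for Cav3 to 0.17 for Cd82 and 0.27 for Cd63. Between the pairs Cav1 (0.96) and Bsg (0.52) were higher in the EPS pair and Cav3 (−0.46) lower. The mean of Plaur differed by −0.54, but its pairs overlapped, since the clenbuterol library alone was high. The list medians were 0.01 with clenbuterol, −0.13 by title under EPS and −0.08 between the pairs. Over all measured genes they were −0.01, −0.02 and 0.04.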

How the data were processed

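Poly(A) RNA of 4 C2C12 myotube cultures was sequenced with a strand-specific TruSeq kit, per the labels' protocols. The submitters' processing notes name the aligner HISAT2 and the build mm10. Neither source names the program behind the counts, FPKM and TPM, the annotation release or the use of strand in counting. The authors deposited estimated counts, FPKM and TPM per gene in 1 joint table, and TPM in a table per library. The counts are whole numbers and were used as deposited. Members differed by at most 0.000110 TPM between the 2 kinds of table.

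Computed here were log2 ratios of TPM + 1, for genes that reached 1 TPM in any library compared. CPM ratios used TMM factors (edgeR 4.0.16, R 4.3.3) and exact Clopper-Pearson 95% intervals. A run on simulated counts held counting error alone, so it cannot show how the intervals fare with spread between cultures. These intervals and floors cover counting error only. DESeq2 1.42.0 gave size factors for an alternative. Python 3.11.15, numpy 2.4.6, pandas 2.3.3, scipy 1.17.1 and matplotlib 3.10.9 served for the rest.

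All measured members are named except 1, which is counted but not reported here. From each partner list the 2 highest and 2 lowest ratios per comparison are named, at a TPM of at least 5. Membership of the family follows from gene symbols alone, but the genes named were picked by their measured levels and ratios. The named partners are thus the extremes of their lists. This gene family, the lists and the tests were chosen with earlier results of these data known.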

Additional observations from a re-analysis of the deposited data

How the results depend on the processing

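No paired analysis was possible because each group holds 1 library, and leaving out a replicate was not possible for the same reason. With clenbuterol the counts of chains at least 2-fold apart stayed at 0 under every alternative run. For the EPS-titled library against the EPS-titled control, the count of lower chains was 1 at a pseudocount of 0.1 and 2 at 1.5-fold, and 0 under the others, all of which add a pseudocount of 1 or more, also to CPM. For the EPS pair against the clenbuterol pair, 1 chain was higher and 1 lower at a pseudocount of 0.1, in CPM with TMM factors, in CPM with library totals, with DESeq2 size factors and at 1.5-fold, and 1 was lower in TPM divided by TMM factors. Weakly expressed chains gain most from a smaller pseudocount by its construction. A threshold of 1.5-fold can only add calls, by its definition. For the changes with scaling the cause was not tested. Medians kept their sign under all 10 alternatives: 0.03 to 0.08 with clenbuterol, −0.16 to −0.08 by title under EPS and 0.02 to 0.09 between the pairs. Of the single genes named, 8 values near 0 turned sign under at least 1 of 8 scalings and pseudocounts: Fbln1, Sdc2, Itgb1, Lama2 and Lamb2 with clenbuterol, Itga3 and Lama5 by title under EPS, and Lamb3 between the pairs. For abundant chains the scaling can shift a ratio by more than its counting interval spans. By title under EPS the log2 ratio ran from 0.03 to 0.12 for Itgb1 and from −0.17 to −0.08 for Itga7. Chains under a TPM of 1 rest on at most 53 counts, which limits what can be said of them.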
